A study of Mus musculus with 5 samples.

Results

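Mitochondrial ribosomal protein genes are the nuclear genes that encode the protein part of the ribosome inside mitochondria. They were taken here as the rows of the authors' deposited Cuffdiff table that Cuffdiff had tested, that carry 1 gene symbol, and whose symbol starts with Mrpl or Mrps followed by a digit. This gave 75 genes of the 12311 rows tested, 48 with a large subunit symbol (Mrpl) and 27 with a small subunit symbol (Mrps). The choice used symbols and test status only, not the expression values. In addition, 3 tested rows name such a gene together with neighbors, and no matching row was left untested by Cuffdiff.

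The samples are macrophages of mouse tumors grown from 9609, a line of MCA fibrosarcoma, and their RNA was sequenced. The MEK1-hi group has 3 libraries from tumors of the line and genotype called MEK1-hi, with MEK1-hi exosomes as treatment, and the MEK1-low group has 2 libraries from the line and genotype called MEK1-low, whose exosome treatment carries the note GFP. Exosomes are small vesicles shed by cells, and MEK1 is a kinase of the RAS-ERK cascade. The labels give no mouse strain, sex, age or day of harvest. Nor do they state whether a line is a single clone or whether each library is its own animal, so Cuffdiff's p values cover the spread among these libraries, possibly a technical one.

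Mitochondria keep a small genome whose messenger RNAs encode core subunits of the respiratory chain and of ATP synthase. A dedicated ribosome, the mitoribosome, translates them. Its ribosomal RNAs come from the mitochondrial genome, while all of its proteins are encoded in the nucleus, made in the cytosol and imported. Its large subunit joins amino acids and passes the growing chain out through a tunnel to the inner membrane, and its small subunit reads the messenger RNA. Part of the proteins have counterparts in bacterial ribosomes and part were added during the evolution of mitochondria. Macrophages shift between respiration and glycolysis as they are activated.

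Levels are FPKM (fragments scaled to transcript length and library size), a value per length meant for comparison between genes. The authors' deposited table has 1 pooled estimate per group and no value per library, so no SD can be given and the depth behind a value is unknown. Differences are log2 ratios of MEK1-hi over MEK1-low FPKM, and Cuffdiff's q, its p adjusted over all tested rows, was read at a threshold of 0.05. The macrophage label was checked against 12 markers, which were all tested: Lyz2 had 6372 FPKM in MEK1-hi and 4999 in MEK1-low, Csf1r 628 FPKM in MEK1-hi and 680.1 in MEK1-low and Adgre1 411 FPKM in MEK1-hi and 388 in MEK1-low. Of the B cell, neutrophil and NK cell lists, the lineage markers Ms4a1, Ly6g and Ncr1 were under 1 FPKM in both groups, with Ms4a1 at 0.212 FPKM in MEK1-hi and 0.101 in MEK1-low, Ly6g at 0.0612 FPKM in MEK1-hi and 0.0348 in MEK1-low and Ncr1 at 0.0889 FPKM in MEK1-hi and 0.0737 in MEK1-low. Other genes of those lists and of the T cell list were higher, such as Cd79b with 8.91 FPKM in MEK1-hi and 8.05 in MEK1-low, Csf3r with 36.6 FPKM in MEK1-hi and 26.2 in MEK1-low, Klrk1 with 18.1 FPKM in MEK1-hi and 5.27 in MEK1-low and Cd4 with 19.3 FPKM in MEK1-hi and 27.8 in MEK1-low. Some genes of the fibroblast and tumor list reached the range of Adgre1. Fn1 had 232 FPKM in MEK1-hi and 535 in MEK1-low, and Postn 371 FPKM in MEK1-hi and 471 in MEK1-low.

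None of the mitochondrial ribosomal protein genes passed Cuffdiff's test of a difference between the groups. At a q of 0.05, 0 of 75 were called, against 1.32% of all tested rows (0.999% higher and 0.325% lower in MEK1-hi). At a q of 0.1 it was 0 of 75 against 1.61%. At an unadjusted p under 0.05 the count was also 0 of 75, against 6.08% of all tested rows. The smallest p was 0.114, for Mrpl57, and every member had a q of 0.9998. The log2 ratios ran from -0.27 to 0.54 around a median of 0.031, with an SD over genes of 0.17. Over all rows tested and above 0 in both groups, the median was -0.023 and the SD 0.40. In 71 of the 75 members (94.7%) the absolute log2 ratio was under 0.3, as it was in 71.5% of those rows and in 81.7% of those with a mean FPKM between 10 and 200. That range of levels holds 60 of the members. The smallest difference called in it was 0.82 on the log2 scale, and the smallest with an unadjusted p under 0.05 was 0.46 on the same scale, so no smaller difference passed either threshold in that range. The missed threshold does not show that the groups were equal.

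**Figure D1:**
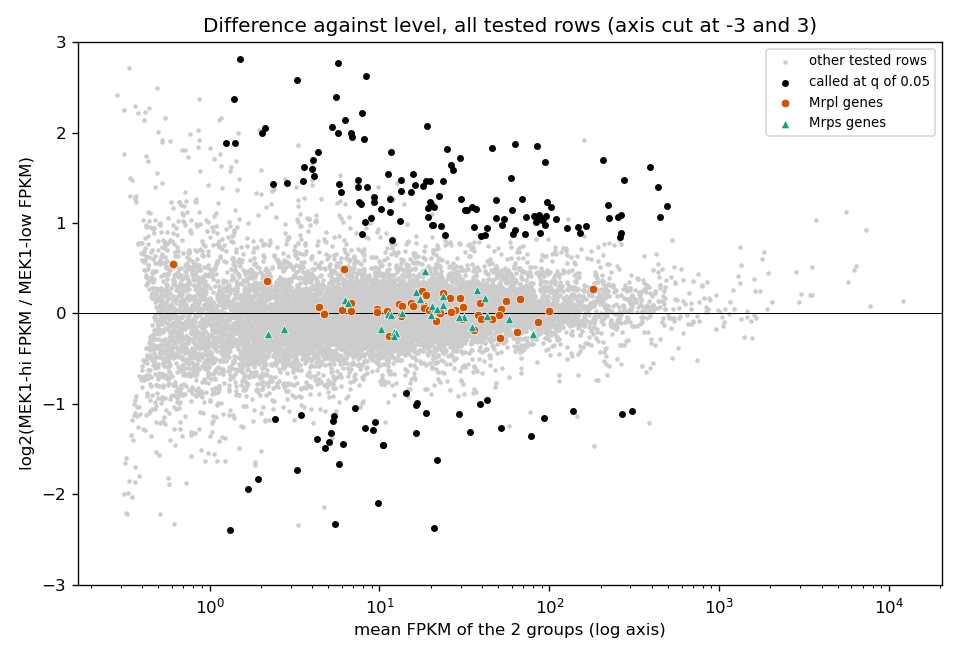
Each point is a row tested by Cuffdiff, with the mean FPKM of both groups on a log axis across and the log2 ratio of MEK1-hi over MEK1-low FPKM up, and the vertical axis stops at -3 and 3. Circles are Mrpl genes and triangles Mrps genes, all between -0.27 and 0.54. The smallest absolute log2 ratio among the black points, called at a q of 0.05, is 0.82.

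How many members lay above 0 depended on how the groups were scaled. As deposited, 47 of the 75 members were above 0 (62.7%, against 46.2% of all tested rows). Equal FPKM sums over all rows of the table shift every log2 ratio by -0.099, after which 23 were above 0 (30.7%, against 30.96%). Centring on the median of all tested rows left 53 above 0 (70.7%, against 50% of those rows). Values below are as deposited, and no direction is drawn from them for the family.

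The medians of the large and the small subunit lay close together. The median log2 ratio was 0.038 over the 48 Mrpl genes, of which 35 lay above 0, and -0.012 over the 27 Mrps genes, of which 12 did. The medians differed by 0.05, less than the SD among genes within either subunit (0.16 and 0.18). Genes are not replicates, so no test of that difference was made. After rescaling to equal FPKM sums both medians were below 0, at -0.061 and -0.11, with 15 Mrpl and 8 Mrps genes above 0. The summed level of the Mrpl genes was 1464 FPKM in MEK1-hi and 1419.8 in MEK1-low, and that of the Mrps genes 619.7 FPKM in MEK1-hi and 619 in MEK1-low. Of the gap of 44.1 FPKM in the Mrpl sum, 33.5 came from Mrpl52 alone. Without Mrpl52 the Mrpl sums were 1266 in MEK1-hi and 1256 in MEK1-low.

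Symbols do not always match the subunit. In mammalian structures the products of Mrps30 and Mrps18a sit in the large subunit, and that of Mrps36 belongs to the oxoglutarate dehydrogenase complex of the citric acid cycle rather than to the ribosome. With the subunits set by structure, 50 large subunit genes had a median log2 ratio of 0.038 and 24 small subunit genes one of -0.0068. The 45 genes whose proteins have a bacterial counterpart had a median of 0.025 and the 29 mitochondria-specific ones 0.08. Within the large subunit these medians were 0.03 for 30 genes with a counterpart and 0.087 for 20 without. The levels of the classes differed more than their ratios. Genes with a bacterial counterpart had a median of 26.8 FPKM in MEK1-hi and 26.2 in MEK1-low, and the mitochondria-specific ones 15.9 in MEK1-hi and 14.7 in MEK1-low.

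**Figure D2:**
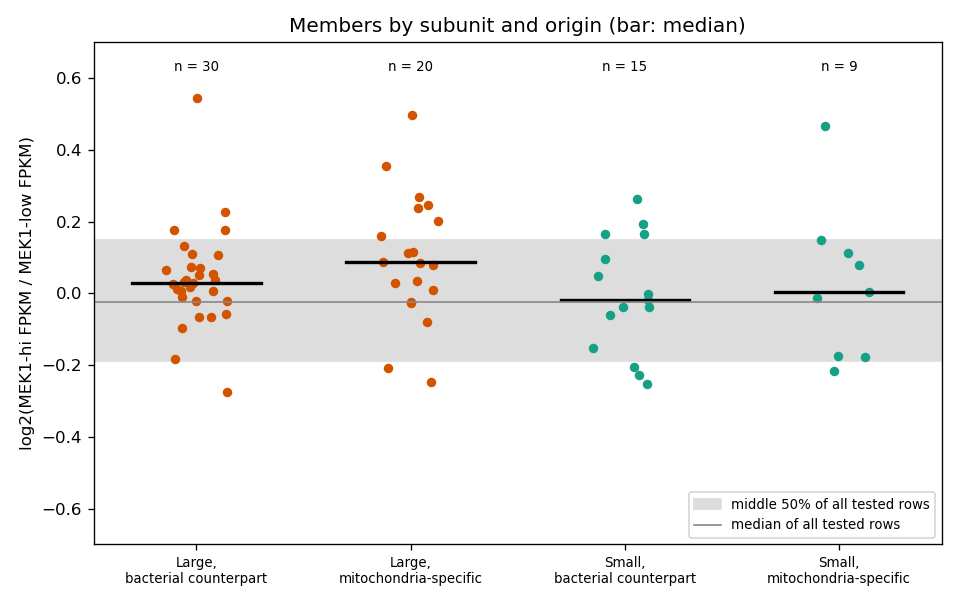
Log2 ratio of MEK1-hi over MEK1-low FPKM for each member, grouped by subunit (set by structure, Mrps36 left out) and by whether bacteria have a counterpart, with a bar at each median. The medians lie between -0.017 and 0.087, inside the gray band that holds the middle 50% of all tested rows (-0.19 to 0.15).

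The members' levels spanned 272-fold in MEK1-hi and 329.9-fold in MEK1-low, although all but the product of Mrps36 are parts of 1 particle. Without Mrpl23, the lowest member, the span was 97.1-fold in MEK1-hi and 85.5-fold in MEK1-low, a value added after seeing the data. Mrpl52, a mitochondria-specific protein, was the most abundant transcript with 198 FPKM in MEK1-hi and 164 in MEK1-low. It was followed by Mrpl33, with 101 FPKM in MEK1-hi and 98.8 in MEK1-low, and Mrpl13, with 83.00 FPKM in MEK1-hi and 88.8 in MEK1-low. Mrps21, the most abundant small subunit transcript, had 74.2 FPKM in MEK1-hi and 86.9 in MEK1-low. Mrpl54 had 71.00 FPKM in MEK1-hi and 63.6 in MEK1-low. Mrpl13 and Mrps21 had the lower value in MEK1-hi and the other 3 the higher one, and none passed the test. The 10 most abundant members of each group made up 38.6% of the family's summed FPKM in MEK1-hi and 38.8% in MEK1-low. At the other end, Mrpl23, whose product lies at the exit of the peptide tunnel, had 0.726 FPKM in MEK1-hi and 0.498 in MEK1-low. Mrpl48, in the protuberance at the top of the large subunit, had 2.46 FPKM in MEK1-hi and 1.92 in MEK1-low. Mrps36 and Mrps33 were also low, at 2.04 FPKM in MEK1-hi and 2.38 in MEK1-low for Mrps36 and 2.56 FPKM in MEK1-hi and 2.90 in MEK1-low for Mrps33. Next came Mrpl19, with 4.51 FPKM in MEK1-hi and 4.28 in MEK1-low. By mean FPKM, 15 members lay under 10, 46 between 10 and 40 and 14 at 40 or more, and their median log2 ratios were 0.051, 0.033 and -0.025. The order of the levels was much the same in both groups, with Spearman's rho of 0.99 across the 75 genes, which are measured in the same libraries and are no independent replicates.

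**Figure D3:**
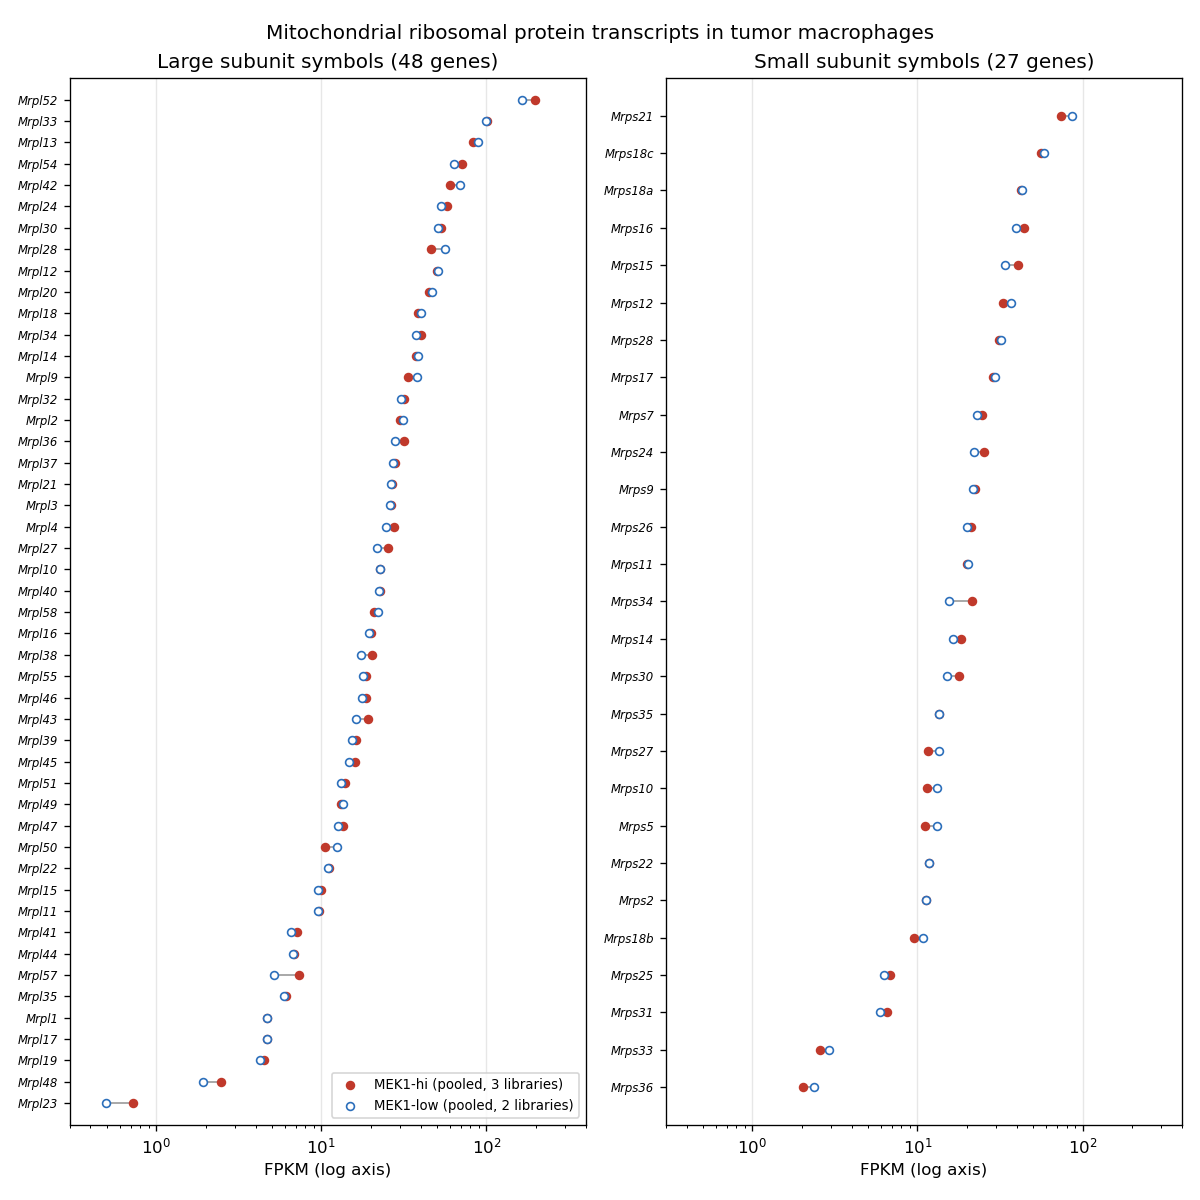
FPKM of each member on a log axis, as the authors' pooled value of 3 MEK1-hi libraries (filled red) and 2 MEK1-low libraries (open blue), sorted by level within the Mrpl and the Mrps genes. The paired points lie close together from Mrpl52 (198 FPKM in MEK1-hi and 164 in MEK1-low) down to Mrpl23 (0.726 FPKM in MEK1-hi and 0.498 in MEK1-low).

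Some low levels coincide with features that touch read assignment. Processed pseudogenes matching a member at 95% identity or more, over at least 150 bases and 30% of its longest transcript, were found in GENCODE M21 for 11 members. Mrpl23, the lowest member, has a copy, Mrpl23-ps1, identical over 507 bases, and Mrps36, the third lowest, has 4 copies. The others are Mrpl21, Mrpl22, Mrpl27, Mrpl41, Mrpl42, Mrps10, Mrps18b, Mrps21 and Mrps25. Reads of a member and its copy can be split between them, so these 11 levels are uncertain. Members with a copy had a median of 11.1 FPKM in MEK1-hi and 10.9 in MEK1-low, and the 64 without one 21.2 in MEK1-hi and 20.9 in MEK1-low. Their median log2 ratios were 0.029 and 0.036. The part of the copies in the levels was not tested. Of the members, 9 share part or all of their locus with another row. Among them are Mrpl48 (with Rab6a), Mrpl43 (with Twnk, at the same coordinates) and Mrps7 (with Mif4gd). Longer transcripts went with lower levels across genes, with Spearman's rho of -0.47 between longest annotated transcript and mean FPKM and 0.083 between that length and the log2 ratio (75 genes of the same libraries). The shortest were those of Mrpl52, Mrpl33 and Mrps21 (463, 478 and 488 bases), which ranked 1, 2 and 4 by mean FPKM. The part of length in these ranks was not tested.

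In the large subunit, the flexible stalk that recruits translation factors is built from the products of Mrpl10 and Mrpl12, beside that of Mrpl11. Mrpl12 had 50.2 FPKM in MEK1-hi and 50.9 in MEK1-low (log2 ratio -0.022). Mrpl10 had 22.7 FPKM in MEK1-hi and 22.6 in MEK1-low, and Mrpl11 had 9.68 FPKM in MEK1-hi and 9.60 in MEK1-low. The log2 ratios of all 3 lay within 0.022 of 0. Close to the site of peptide bond formation lie the products of Mrpl2, Mrpl3, Mrpl16 and Mrpl27. Mrpl2 had 30.01 FPKM in MEK1-hi and 31.4 in MEK1-low, Mrpl3 26.5 FPKM in MEK1-hi and 26.2 in MEK1-low and Mrpl16 19.9 FPKM in MEK1-hi and 19.3 in MEK1-low. Mrpl27 had 25.4 FPKM in MEK1-hi and 21.7 in MEK1-low, a log2 ratio of 0.23 (the authors' p = 0.471).

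At the tunnel and its exit, Mrpl4 had 27.7 FPKM in MEK1-hi and 24.5 in MEK1-low and Mrpl22 11.1 FPKM in MEK1-hi and 10.9 in MEK1-low. Mrpl24 had 58.01 FPKM in MEK1-hi and 52.9 in MEK1-low. Mrpl45, whose product faces the inner membrane, had 15.9 FPKM in MEK1-hi and 14.7 in MEK1-low, and Mrpl44, which keeps an RNase III-like fold, 6.87 FPKM in MEK1-hi and 6.74 in MEK1-low. Their log2 ratios lay between 0.028 and 0.18. Mrpl23 of the same region had the highest log2 ratio of all members, 0.54 (the authors' p = 0.505), at a level under 1 FPKM in both groups. The genes of the protuberance proteins Mrpl38, Mrpl40, Mrpl46 and Mrpl48 had log2 ratios of 0.20, 0.0084, 0.08 and 0.36. Mrpl18, related to the bacterial protein that binds the 5S ribosomal RNA, had 38.5 FPKM in MEK1-hi and 40.4 in MEK1-low.

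Mrpl58 encodes a peptidyl-tRNA hydrolase that frees stalled mitoribosomes and is also a structural subunit. It had 20.8 FPKM in MEK1-hi and 21.99 in MEK1-low (log2 ratio -0.079). Mrpl32, whose product is cut by an inner membrane protease before it joins the ribosome, had 31.8 FPKM in MEK1-hi and 30.3 in MEK1-low. Mrpl37 and Mrps30, which encode related large subunit proteins, had 28.01 and 17.9 FPKM in MEK1-hi, against 27.3 and 15.1 in MEK1-low. Neither member of that pair passed the test (the authors' p = 0.889 and 0.400). Of the 18 Mrpl genes whose values are given nowhere else here, Mrpl42 had the lowest log2 ratio (-0.21, with 59.9 FPKM in MEK1-hi and 69.1 in MEK1-low) and Mrpl43 the highest (0.25, with 19.2 FPKM in MEK1-hi and 16.2 in MEK1-low).

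The highest log2 ratios after Mrpl23 belonged to Mrpl57, Mrps34, Mrpl48 and Mrpl52. Mrpl57 (mm10 chromosome 14, 57826239 to 57828745) had 7.27 FPKM in MEK1-hi and 5.15 in MEK1-low, a log2 ratio of 0.50 (the authors' p = 0.114). Mrps34 (chromosome 17, 24895120 to 24896289), a small subunit gene in which human variants impair mitochondrial translation, had 21.4 FPKM in MEK1-hi and 15.5 in MEK1-low, a ratio of 0.47 (the authors' p = 0.135). These were the only members with a p under 0.2. Mrpl48 and Mrpl52 had ratios of 0.36 (the authors' p = 0.673) and 0.27 (the authors' p = 0.294). The lowest ratios were those of Mrpl28, Mrps5, Mrpl50, Mrps21 and Mrps36. Mrpl28 (chromosome 17, 26123503 to 26126613) had 46.3 FPKM in MEK1-hi and 55.97 in MEK1-low, a ratio of -0.27 (the authors' p = 0.274). For Mrps5, related to a bacterial protein that affects decoding accuracy, the levels were 11.05 FPKM in MEK1-hi and 13.2 in MEK1-low (-0.25, the authors' p = 0.416). Mrpl50 had 10.5 FPKM in MEK1-hi and 12.4 in MEK1-low (-0.25), and Mrps21 and Mrps36, given above, had ratios of -0.23 and -0.22.

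In the small subunit, Mrps12 encodes the protein next to the decoding center and had 33.04 FPKM in MEK1-hi and 36.8 in MEK1-low (log2 ratio -0.15, the authors' p = 0.602). Mrps2 had 11.3 FPKM in MEK1-hi and 11.3 in MEK1-low and Mrps7 24.5 FPKM in MEK1-hi and 22.98 in MEK1-low. Mrps15 and Mrps16, whose bacterial counterparts help fold the ribosomal RNA early in assembly, had 40.9 FPKM in MEK1-hi and 34.1 in MEK1-low for Mrps15 and 44.1 FPKM in MEK1-hi and 39.3 in MEK1-low for Mrps16. Mrps22, a gene in which human variants cause respiratory chain deficiency, had 11.7 FPKM in MEK1-hi and 11.8 in MEK1-low. Mrps27, which encodes a pentatricopeptide repeat protein, had 11.5 FPKM in MEK1-hi and 13.4 in MEK1-low (ratio -0.22, the authors' p = 0.446). The remaining small subunit genes lay between -0.20 (Mrps10) and 0.19 (Mrps24).

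The family of Mrps18 holds 3 paralogs of the bacterial S18 protein, of which the product of Mrps18a sits in the large subunit and those of Mrps18b and Mrps18c in the small one. The classes used above follow the usual ribosomal nomenclature, in which the product of Mrps18c counts as the bacterial counterpart and the other 2, which derive from the same family but sit elsewhere in the particle, as mitochondria-specific. Mrps18a had 42.4 FPKM in MEK1-hi and 43.2 in MEK1-low. Mrps18b had 9.59 FPKM in MEK1-hi and 10.8 in MEK1-low. Mrps18c had 56.3 FPKM in MEK1-hi and 58.8 in MEK1-low. The order of levels, with Mrps18c highest and Mrps18b lowest, was the same in both groups, and none passed the test (the authors' p = 0.915, 0.611 and 0.840 for a, b and c).

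Many members share a start region with a neighbor. Of the 66 members matched by symbol to a RefSeq start site on GRCm38.p6, 26 (39.4%) have a gene on the opposite strand that starts within 1000 bases upstream and runs the other way, against 19.9% of the 9615 tested genes with a start site. In 1 case both partners are members, the large subunit gene Mrpl46 and the small subunit gene Mrps11, whose starts lie 42 bases apart. Mrps11 had 19.9 FPKM in MEK1-hi and 20.2 in MEK1-low, and Mrpl46 18.7 FPKM in MEK1-hi and 17.7 in MEK1-low, so the pair also had similar levels. Several partners act in mitochondria too. Sars2, the mitochondrial seryl-tRNA synthetase, opposite Mrps12, had 7.16 FPKM in MEK1-hi and 7.48 in MEK1-low. Twnk, the mitochondrial DNA helicase, opposite Mrpl43, had 5.46 FPKM in MEK1-hi and 6.15 in MEK1-low. The rows of Twnk and Mrpl43 have the same locus coordinates. Ndufb5, a subunit of respiratory complex I, opposite Mrpl47, had 72.4 FPKM in MEK1-hi and 71.9 in MEK1-low. Partner and member could differ widely in level: Fau, opposite Mrpl49, had 1619.6 FPKM in MEK1-hi and 1675 in MEK1-low, where Mrpl49 had 13.2 FPKM in MEK1-hi and 13.5 in MEK1-low.

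The start regions hold letters of factors that are known to act on nuclear genes for mitochondrial proteins. Windows of 250 bases before to 50 after each RefSeq start (72 windows for the 66 members) were searched on both strands. CCGGAAG, the core bound by ETS factors such as GABPA, was present in 33.3% of the members' windows, against 8.86% of all 32851 windows in the table and 17.2% of those of tested genes. The core of the NRF1 site, GCGCA and GCGC with any 1 base between them, was present in 18.1%, against 4.60% and 9.77%. AANATGGCG, the core of the YY1 site, was present in 15.3%, against 2.38% and 4.87%. The general letters differed in the other direction from tested genes or hardly at all: GGGCGG (Sp1) was in 52.8% of the members' windows and 61.9% of those of tested genes, CACGTG (the E-box) in 9.72% and 9.99%, and TATAAA in 6.94% and 7.29%. Members with and without these cores had like log2 ratios, with medians of 0.022 and 0.036 for ETS, 0.048 and 0.025 for NRF1, and 0.035 and 0.028 for YY1. A match describes the letters and is not a bound site.

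The windows of the Mrps18 paralogs, of the shared Mrpl46 and Mrps11 start (read toward Mrps11), and of the members with the highest and the lowest log2 ratio, Mrpl23 and Mrpl28, are given 5′ to 3′ from RefSeq (GRCm38.p6), with ETS and YY1 cores, on either strand, in capitals. They are shown for the paralogs that went to different subunits, the start region that serves both subunits, and the extremes of the log2 ratios. All 3 paralogs hold an ETS core, Mrps18a also a YY1 core, the shared window a YY1 core only, and those of Mrpl23 and Mrpl28 none. No NRF1 core falls in any of the 6 windows.
Mrps18a, chr17:46110754-46111053, plus strand: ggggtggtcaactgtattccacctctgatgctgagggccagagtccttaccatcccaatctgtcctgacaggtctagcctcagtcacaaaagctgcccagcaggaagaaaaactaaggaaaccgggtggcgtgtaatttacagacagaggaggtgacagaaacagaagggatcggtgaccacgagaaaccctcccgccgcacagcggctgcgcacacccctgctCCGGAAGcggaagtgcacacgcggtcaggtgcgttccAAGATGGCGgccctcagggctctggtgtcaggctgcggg
Mrps18b, chr17:35916391-35916690, minus strand: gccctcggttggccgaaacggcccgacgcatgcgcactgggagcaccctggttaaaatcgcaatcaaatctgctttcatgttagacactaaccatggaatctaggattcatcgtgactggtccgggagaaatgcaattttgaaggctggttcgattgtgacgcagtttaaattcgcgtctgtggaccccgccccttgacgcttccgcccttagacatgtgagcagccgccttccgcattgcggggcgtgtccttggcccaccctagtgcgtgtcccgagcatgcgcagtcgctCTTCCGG
Mrps18c, chr5:100798509-100798808, plus strand: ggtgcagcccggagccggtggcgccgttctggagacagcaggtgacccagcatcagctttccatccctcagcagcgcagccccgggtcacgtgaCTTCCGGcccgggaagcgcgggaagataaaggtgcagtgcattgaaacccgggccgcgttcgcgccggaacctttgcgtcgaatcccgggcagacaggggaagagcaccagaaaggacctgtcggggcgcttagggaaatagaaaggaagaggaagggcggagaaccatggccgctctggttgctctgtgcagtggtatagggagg
Mrps11, chr7:78782881-78783180, plus strand: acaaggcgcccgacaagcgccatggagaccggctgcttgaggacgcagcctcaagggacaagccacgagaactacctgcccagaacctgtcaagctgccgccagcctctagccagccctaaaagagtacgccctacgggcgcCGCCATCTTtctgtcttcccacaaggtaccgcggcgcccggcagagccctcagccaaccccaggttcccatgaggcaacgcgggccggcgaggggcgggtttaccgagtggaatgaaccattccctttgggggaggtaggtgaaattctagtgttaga
Mrpl23, chr7:142532782-142533081, plus strand: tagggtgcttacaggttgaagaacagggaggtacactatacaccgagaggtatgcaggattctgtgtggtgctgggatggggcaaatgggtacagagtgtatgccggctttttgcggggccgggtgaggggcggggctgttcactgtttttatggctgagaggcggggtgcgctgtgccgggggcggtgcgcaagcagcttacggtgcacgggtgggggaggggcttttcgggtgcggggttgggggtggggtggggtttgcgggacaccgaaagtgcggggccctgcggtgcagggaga
Mrpl28, chr17:26123253-26123552, plus strand: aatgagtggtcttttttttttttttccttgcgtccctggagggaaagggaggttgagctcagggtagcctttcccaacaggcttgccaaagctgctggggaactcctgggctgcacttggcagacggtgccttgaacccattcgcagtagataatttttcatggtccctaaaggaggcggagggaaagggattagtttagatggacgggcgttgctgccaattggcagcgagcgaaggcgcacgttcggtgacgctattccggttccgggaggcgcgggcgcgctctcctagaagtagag

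The transcripts of the factors named above did not pass Cuffdiff's test either. Of 9 tested regulators of mitochondrial genes, 0 were called and 0 had an unadjusted p under 0.05, with a median log2 ratio of -0.058. At the shares of all tested rows (1.32% and 6.08%), few or none would be expected among 9 genes. The most abundant were Myc, a growth regulator, with 336 FPKM in MEK1-hi and 307 in MEK1-low, and Pprc1, a coactivator, with 20.1 FPKM in MEK1-hi and 22.5 in MEK1-low. Of the factors whose letters were searched, Gabpa had 13.4 FPKM in MEK1-hi and 13.9 in MEK1-low, Nrf1 9.91 FPKM in MEK1-hi and 10.3 in MEK1-low and Yy1 18.8 FPKM in MEK1-hi and 16.8 in MEK1-low. The coactivator gene Ppargc1a was not tested by Cuffdiff and had 0.0111 FPKM in MEK1-hi and 0.0417 in MEK1-low.

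In each list of the other mitochondrial translation genes examined, 0 were called and 0 had an unadjusted p under 0.05. Over all tested rows the shares were 1.32% and 6.08%, so few or none would be expected in lists of this size. Of the mitoribosomal proteins with other names, 5 were tested: Dap3 had 11.9 FPKM in MEK1-hi and 12.5 in MEK1-low, Ptcd3 11.00 FPKM in MEK1-hi and 12.3 in MEK1-low, Chchd1 72.00 FPKM in MEK1-hi and 67.9 in MEK1-low, Aurkaip1 40.1 FPKM in MEK1-hi and 36.96 in MEK1-low and Gadd45gip1 19.2 FPKM in MEK1-hi and 15.96 in MEK1-low. The 24 tested assembly factors had a median log2 ratio of 0.0054, with Rbfa, which acts on the small subunit, at 26.3 FPKM in MEK1-hi and 21.5 in MEK1-low and Mterf3 at 15.1 FPKM in MEK1-hi and 14.4 in MEK1-low. The 15 translation factors and messenger RNA binders had a median of -0.11, with 10 below 0. The most abundant were Slirp, which stabilizes mitochondrial messenger RNAs, at 109.8 FPKM in MEK1-hi and 118 in MEK1-low, and Gfm1, an elongation factor, at 17.9 FPKM in MEK1-hi and 21.8 in MEK1-low. Of the 22 genes for charging mitochondrial tRNAs, among them Qrsl1, Gatb and Gatc beside the synthetases, 18 lay below 0 (median -0.068). Of all tested rows, 6620 of 12306 did, a smaller share. Kars, which also serves the cytosol, and Lars2 were the most abundant of these and had 87.1 FPKM in MEK1-hi and 96.2 in MEK1-low for Kars and 69.6 FPKM in MEK1-hi and 54.97 in MEK1-low for Lars2. The 15 genes of mitochondrial DNA and RNA handling had a median of -0.03, with Lonp1, a matrix protease, at 23.8 FPKM in MEK1-hi and 24.7 in MEK1-low and Clpp, another, at 18.8 FPKM in MEK1-hi and 21.6 in MEK1-low. Transcripts of the mitochondrial genome itself are not analysed here.

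Set beside the ribosome of the cytosol, the mitochondrial ribosomal protein genes were less abundant and their log2 ratios spread less. Their summed level was 2084 FPKM in MEK1-hi and 2039 in MEK1-low, and that of 81 cytosolic ribosomal protein genes 14907 FPKM in MEK1-hi and 13231 in MEK1-low. The median log2 ratio was 0.031 for the mitochondrial and 0.23 for the cytosolic genes, with SDs over genes of 0.17 and 0.46. Of the cytosolic genes, 4 were called higher and 15 were higher at an unadjusted p under 0.05, against 0 and 0 of the mitochondrial ones. Of the 12306 tested rows above 0 in both groups, 123 were called higher and 430 were higher at that p. Cytosolic ribosomal protein genes have many processed pseudogenes, which makes their levels uncertain. Among the called genes were Rpl23 (48.5 FPKM in MEK1-hi and 21.3 in MEK1-low), Rpl21 (26.1 FPKM in MEK1-hi and 12.5 in MEK1-low) and Rplp2 (129.9 FPKM in MEK1-hi and 61.7 in MEK1-low). The 79 nuclear genes of the respiratory chain and ATP synthase, which work with the products of mitochondrial translation, had a median of -0.032, with 0 called and 3 higher at an unadjusted p under 0.05 (Atp5h, Cox8a and Cox6a2). Those 3 of 79 are close to the share of all tested rows given above. No test of these differences between lists was made.

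**Figure D4:**
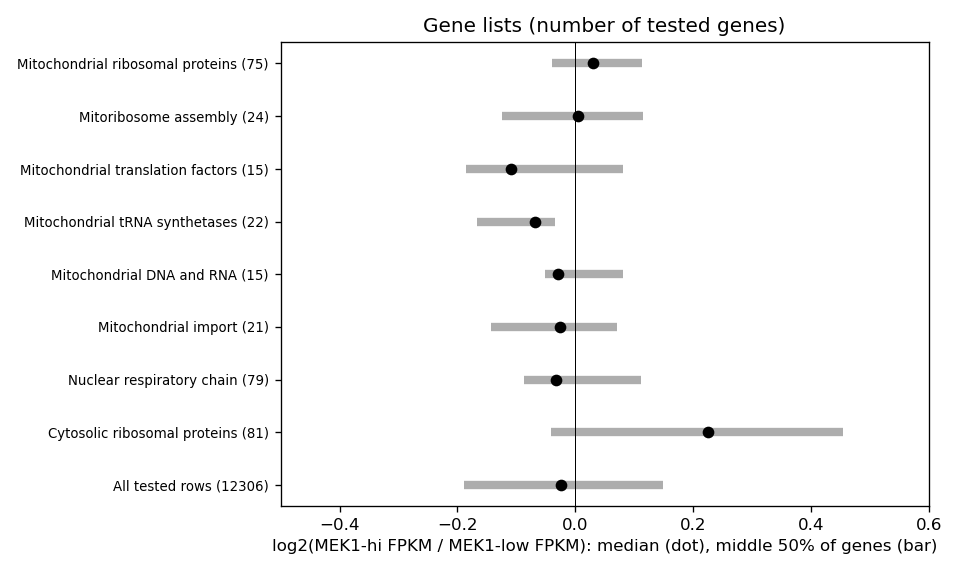
Median log2 ratio of MEK1-hi over MEK1-low FPKM (dot) and the range of the middle 50% of genes (bar) for each gene list, with the number of tested genes in brackets. The mitochondrial ribosomal proteins (0.031) lie near the median of all tested rows (-0.023), and the cytosolic ribosomal proteins at 0.23.

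Markers of other cells did differ between the groups. All 11 tested fibroblast and tumor markers were below 0. Of these, 4 were called lower (Col5a1, Col6a3, Thy1 and Acta2) and 8 were lower at an unadjusted p under 0.05. Their summed level was 1384 FPKM in MEK1-hi and 2323 in MEK1-low. Of 5 tested NK and cytotoxic markers, 1 was called higher (Klrk1) and 4 were higher at that p. They summed to 32.9 FPKM in MEK1-hi and 11.03 in MEK1-low. Over all tested rows, 0.325% were called lower and 0.999% higher. At that p, 317 of the 12306 tested rows above 0 in both groups were lower and 430 higher. Of 12 proliferation genes 11 lay below 0 and 0 were called (summed level 322 FPKM in MEK1-hi and 374 in MEK1-low). Of the 12 macrophage markers 6 lay above and 6 below 0, with 0 called, a median log2 ratio of -0.00052 and a summed level of 20306 FPKM in MEK1-hi and 17765 in MEK1-low, most of it from Lyz2 and the C1q genes. Mrc1, the mannose receptor, was the 1 macrophage marker with an unadjusted p under 0.05, with 142 FPKM in MEK1-hi and 236 in MEK1-low (log2 ratio -0.73, the authors' p = 0.0169). Of the 7 tested T cell markers 6 lay above 0 (median 0.82) and 0 were called. They summed to 35.2 FPKM in MEK1-hi and 37.7 in MEK1-low. Cd4 was the 1 below 0, and without it the others summed to 15.9 FPKM in MEK1-hi and 9.86 in MEK1-low. Cd4 was left out there for its own value, after seeing the data, so the second sum gives no direction for T cells. The tested markers of other cells summed for neutrophils to 62.9 FPKM in MEK1-hi and 55.6 in MEK1-low, for endothelial cells to 10.3 FPKM in MEK1-hi and 9.89 in MEK1-low and for epithelial cells to 14.8 FPKM in MEK1-hi and 21.1 in MEK1-low, with 0 called in each. In bulk RNA, fewer cells of a type and less RNA per cell cannot be told apart. The part of other cells in the members' values was not tested.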

How the data were processed

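RNA-seq of 3 MEK1-hi and 2 MEK1-low samples of mouse tumor macrophages was compared. TRIzol RNA (750 ng) went into stranded poly(A) libraries for paired reads of 100 bases, 25000000 a sample being the plan, per the labels' protocols. The tools were TopHat, Cufflinks, Cuffdiff and FastQC 0.73, with mm10 as genome, per the submitters' processing notes. No source used here states the annotation or the strand setting. The FPKM values deposited by the authors are 1 pooled estimate per group. The p-value and q-value columns and the test statistic, a score, are also as deposited by the authors. Log2 ratios were computed here from the FPKM values without a pseudocount.

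The members and lists were chosen with earlier results of these data known. Named in full were members called or with an unadjusted p under 0.05 (there were none), the 5 highest and 5 lowest by log2 ratio and by mean FPKM, Mrpl12, Mrps30, Mrps36 and the Mrps18 genes; any other member may be named. In each other list the rule took called genes and those at an unadjusted p under 0.05, or the 2 most abundant, and the text names part of them. Start-site partners, the Mrpl46 and Mrps11 window, Gabpa, Nrf1, Yy1 and the lists of cytosolic ribosomal, respiratory chain and import genes were added after values were seen. With FPKM in place of counts, a count model was not fitted. The Benjamini-Hochberg adjustment, recomputed here from the deposited p over all tested rows, differed from the deposited q by at most 5e-07. Pseudogene copies were sought with BLAST 2.17.0 in GENCODE M21 transcripts. Loci are mm10, 1-based. Alternatives changed the q threshold, adjustment, filter, pseudocount, scaling, subunit assignment and row choice. Some items are not reported here. Work used Python 3.11.15, numpy 2.4.6 and pandas 2.3.3.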

Additional observations from a re-analysis of the deposited data

How the results depend on the processing

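With the Benjamini-Yekutieli adjustment, with a q of 0.1, at an unadjusted p under 0.05, with rows of several symbols, and with an FPKM filter of 1, the count of called members stayed at 0. Under Benjamini-Yekutieli 0 rows of the whole table were called, so that setting is uninformative for the members. The median log2 ratios of MEK1-hi over MEK1-low were 0.038 for the large and -0.012 for the small subunit. They moved to -0.061 and -0.11 with equal FPKM sums, to 0.061 and 0.011 when centred on the median of all tested rows, and to 0.061 and 0.0058 with means. A pseudocount of 1 gave 0.035 for the large subunit. Without members that have a pseudogene copy, an alternative chosen after seeing the data, the small subunit median was 0.0011. The difference between subunits (0.05) was 0.045 with subunits by structure, 0.055 with means and 0.037 without members that have a copy. The other settings run kept the sign of each value. The cause of these moves was not tested beyond what each setting changes. Leaving out a replicate could not be run without values per library. No paired analysis was possible because the table holds 1 pooled value per group.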

Other observations

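Mitoribosomal genes that share a row with neighbors, and so fell outside the family's rule, were not called either. The row that joins Mrps6 with the inositol transporter gene Slc5a3 had 41.7 FPKM in MEK1-hi and 42.3 in MEK1-low (log2 ratio -0.018, the authors' p = 0.965). The row of Mrps23, Cuedc1 and 2210416O15Rik had 24.03 FPKM in MEK1-hi and 23.7 in MEK1-low (log2 ratio 0.019, the authors' p = 0.947), and that of Mrpl53 and Ccdc142 had 23.8 FPKM in MEK1-hi and 22.8 in MEK1-low (log2 ratio 0.065, the authors' p = 0.866). None was called, and the share of each gene in its row is unknown.

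The import machinery, which carries mitoribosomal proteins across the mitochondrial membranes, was looked at after the data were seen. Of 21 tested genes whose symbols start with Tomm or Timm, 0 were called and 0 had an unadjusted p under 0.05, with a median log2 ratio of -0.025 and a range of -0.35 to 0.25. At the shares of all tested rows (1.32% and 6.08%), few or none would be expected among 21 genes. Tomm22, a receptor of the outer membrane, had 76.3 FPKM in MEK1-hi and 72.7 in MEK1-low, and Timm8b, a chaperone of the space between the membranes, 56.3 FPKM in MEK1-hi and 66.9 in MEK1-low.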
